A study of Mus musculus with 12 samples.

Results

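The comparison set 8 sarcomas, 4 leiomyosarcomas and 4 osteosarcomas, against 4 normal tissue samples, 2 of muscle and 2 of bone marrow, from mice. These 12 samples are all the samples of the series. Genes belonged to the comparison if they moved the same way in each tumour type against each normal tissue, which makes 4 contrasts. Of 11754 genes tested, 457 were higher and 127 lower in all 4 contrasts, so the shared set holds 584 genes.

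Every sample, tumour and normal tissue alike, carried the genotype that the labels spell "p53 flow/flox", and the submitters describe the animals as transgenic for a p53 mutation. The labels name no Cre driver, deletion, age or sex, and no treatment was given. Tumour-bearing mice were watched until a tumour could be seen or a limb was paralysed. The tissues were fresh frozen, and RNA was hybridised to one-colour Illumina bead arrays. The labels do not say that each sample came from its own animal, and muscle 1 and bone marrow 2 have the same animal code, so p-values reflect the scatter of these 12 samples and nothing wider. Trp53 itself was not analysed here.

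Sarcomas are malignant tumours of connective and supporting tissue. Leiomyosarcoma is named for smooth muscle, and osteosarcoma is a tumour whose cells lay down bone matrix. Mesenchymal cells secrete collagens, glycoproteins and proteoglycans, and they also make the proteases that cut these proteins. p53, the product of Trp53, is a transcription factor that arrests or kills stressed cells by switching on genes such as Cdkn1a, and its loss is a well known route to sarcoma in mice. Muscle is a tissue of long differentiated fibres, whereas bone marrow is a tissue of dividing blood precursors, so a gene that differs from both does so against very unlike backgrounds.

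Between 14169 and 18100 of 45281 probes per array were detected (31.3% to 39.97%). Levels below are log2 normalised signals, on which 1 unit is a 2-fold difference, and differences carry the standard error (SE) of a limma model of the 4 groups. The background constant of the arrays fell into 2 sets. It was low, 80.8 to 84.2, on the 4 normal arrays and on leiomyosarcomas 1 and 2, and high, 99.3 to 110.1, on leiomyosarcomas 3 and 4 and all osteosarcomas. Skeletal muscle fibre markers (18 genes measured) summed to 521392 to 544770 in muscle and neutrophil markers (15 genes) to 390756 to 409831 in bone marrow, as those labels say. Osteoblast markers (7 genes) summed to 51364 to 71539.9 in osteosarcoma against 2651 to 3103 in leiomyosarcoma. Smooth muscle markers (11 genes) summed to 9536 to 24347 in leiomyosarcoma, below the 69727 to 77577 of muscle and overlapping the 6522 to 34548 of osteosarcoma, and 3 of the 11 were not detected on any leiomyosarcoma array. The name leiomyosarcoma is used as the submitters gave it; this list did not set those tumours apart.

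A gene was called in a contrast at an adjusted p under 0.05 in limma and an absolute log2 difference of at least 1. The 457 higher genes were 3.89% and the 127 lower genes 1.08% of all genes tested. Leiomyosarcoma alone differed from muscle in 20.1% of genes upward and 15.1% downward, and from bone marrow in 15.2% upward and 12.7% downward. Osteosarcoma differed from muscle in 18.5% upward and 14.5% downward, and from bone marrow in 14.8% upward and 13% downward. The mean of both tumours against the mean of both normal tissues called 14.2% higher and 9.93% lower, but a gene can pass that pooled contrast through 1 normal tissue alone.

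The values below are those that chose the genes, so they describe the set and support nothing further. The 8 tumours all lay above the 4 normal samples in 441 of the 457 higher genes, beside 8.23% of all genes tested. They all lay below in 121 of the 127 lower genes, beside 5.26% of all genes. The smallest of a gene's 4 differences had a median of 1.70 in the higher set and a median size of 1.33 in the lower set. It reached 2 in 167 higher and 18 lower genes, and 3 in 45 and 2. At the fold limit, Mif was just inside at 1.0024 and Fzd2 just outside at 0.999, and Sephs2 was inside at -1.003 and Elane outside at -0.998. At the limit of adjusted p, Fzd5 passed at 0.0491 and Kcnk2 missed at 0.0504, while Stk16 passed at 0.0458 and Msrb1 missed at 0.0507.

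Of the higher genes, 250 were detected on at least 1 array of every group. Another 93 were not detected on any bone marrow array, 20 on any muscle array and 94 on any array of either normal tissue, and for these only a lower bound of the fold can be given. A bound sets the tumour mean against the lowest detected signal on the normal arrays, or the probe's own signal where that is higher. Of the lower genes, 105 were detected on at least 1 array of every group, 8 were not detected on any array of leiomyosarcoma only, 7 of osteosarcoma only and 7 of either tumour. In whole tissue, fewer cells of a type and less RNA per cell cannot be told apart, and this holds for every gene below.

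These counts were smaller when the background level was fitted as a block, and the cause of the drop was not tested. With the 2 sets of arrays as a block, 309 genes were higher and 68 lower, and 258 and 53 of them were among the 457 and 127. Leiomyosarcomas 1 and 2, on arrays of the same low background as the normal tissues, were by themselves called against both normal tissues in 386 of the 457 and 90 of the 127, and all 584 kept their sign. Over all 11754 genes, that fit called 800 higher and 187 lower. The same arrays helped choose the 584, so this is no separate test of the background level. For osteosarcoma no low-background subset exists, since all its arrays had high background, and its differences from normal tissue are corrected only through leiomyosarcoma. Scaling by the median in place of quantiles gave 359 higher and 190 lower genes, or 65.4% higher in place of 78.3%, and moved the median of all genes to between -0.34 and -0.20. When each array was left out in turn, 230 of the higher and 47 of the lower genes were called every time.

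**Figure D1:**
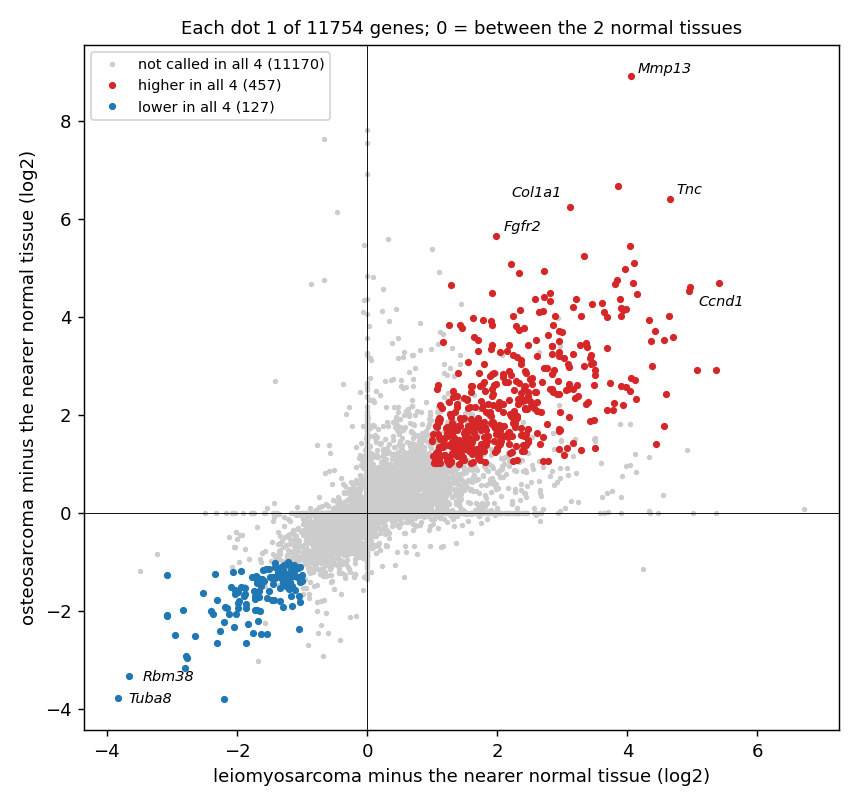
Each dot is 1 of the 11754 genes. The horizontal axis is the log2 difference of leiomyosarcoma from the nearer normal tissue and the vertical axis that of osteosarcoma, with 0 for a tumour mean between the means of the normal tissues. Red dots are the 457 genes higher and blue dots the 127 genes lower in all 4 contrasts. Mmp13, Col1a1 and Fgfr2 lie above the diagonal, with larger differences in osteosarcoma.

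Extracellular matrix genes were among those higher in both sarcomas. In this and later lists, a count of higher or lower genes is over all 4 contrasts unless single contrasts are named. Members could run otherwise in a single contrast. Of 19 fibrillar collagen and stromal matrix genes measured, 10 were higher in both tumours and 0 lower, and of 10 basement membrane genes, 5 were higher and 0 lower, although 1 was lower than muscle in each tumour. Median differences of the tumour mean from the normal mean were 3.91 and 2.83, beside 0.0016 over all genes tested. On bone marrow arrays, 10 of the 19 and 9 of the 10 were never detected, so these medians rest partly on background values. Against muscle, medians were 2.39 and 3.23 (leiomyosarcoma, then osteosarcoma) for stromal genes and 1.81 and 1.19 for basement membrane genes. Against bone marrow they were 5.60 and 5.75, and 5.09 and 4.63. Unless a tissue is named, later list medians also pool both normal tissues. Against muscle alone, 13 of the 19 stromal genes rose in leiomyosarcoma and 12 in osteosarcoma, and against bone marrow 17 and 15. The 10 shared stromal members were Col1a1, Col1a2, Col5a1, Col5a2, Col6a1, Col6a2, Col16a1, Sparc, Tnc and Bgn.

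Tnc, encoding tenascin C, a large glycoprotein of wounds and tumour stroma, measured 13.51, 9.25, 11.49 and 12.29 in the leiomyosarcomas and 13.64, 12.25, 12.99 and 14.70 in the osteosarcomas, against 6.94 and 7.03 in muscle and 5.87 and 5.71 in marrow. All tumours lay above all normal samples, although leiomyosarcoma 2 was well below the other tumours. Its smallest difference was 4.65 ± 0.93 (leiomyosarcoma minus muscle), with a largest adjusted p of 0.00159, and this difference was 4.03 without leiomyosarcoma 1 and 5.45 without leiomyosarcoma 2. Of its 6 other detected probes, all ran higher in the 4 contrasts, with smallest differences from 0.02 to 4.91.

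Col1a1, the alpha 1 chain of type I collagen and the main protein of bone matrix, measured 11.52, 11.26, 11.39 and 11.36 in the leiomyosarcomas and 14.87, 14.88, 14.04 and 14.19 in the osteosarcomas, against 9.58 and 6.94 in muscle and 4.62 and 4.61 in marrow. Levels were ordered osteosarcoma, leiomyosarcoma, muscle and bone marrow with no overlap between the groups, and the chain was not detected in bone marrow. The rise over muscle was 3.13 ± 0.54 in leiomyosarcoma and 6.24 ± 0.54 in osteosarcoma, and the fold over bone marrow was at least 60.1 and at least 519. The muscle samples differed widely, so the leiomyosarcoma rise was 4.45 without muscle 1 and 1.80 without muscle 2. Col1a1 also stands in the osteoblast marker list, of which it was the 1 shared member of 7. The list was called in 1 gene against either normal tissue in leiomyosarcoma and in 5 in osteosarcoma.

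Col5a1, a chain of the type V collagen that nucleates type I fibrils, rose by 3.45 ± 0.48 and 4.26 ± 0.48 over muscle in leiomyosarcoma and osteosarcoma and by 5.60 ± 0.48 and 6.40 ± 0.48 over bone marrow. The differences of Col5a1 from muscle were 4.39 without muscle 1 and 2.52 without muscle 2 in leiomyosarcoma, and 5.19 without muscle 1 and 3.32 without muscle 2 in osteosarcoma. The fibril-associated collagen gene Col16a1 rose by 4.37 ± 0.41 and 3.498 ± 0.41 over muscle. Bgn, the small proteoglycan biglycan, stood at 14.70, 12.62, 14.30 and 14.39 in the leiomyosarcomas and 14.04, 14.04, 13.93 and 13.98 in the osteosarcomas, against 10.81 and 10.43 for muscle and 7.29 and 7.73 for bone marrow. The 3 genes thus separated tumours from normal tissue in every sample.

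In the basement membrane, the thin sheet under vessels and around muscle fibres, Hspg2 (perlecan) measured 12.49, 11.98, 12.29 and 12.39 in the leiomyosarcomas and 11.73, 11.37, 11.82 and 11.61 in the osteosarcomas, against 10.25 and 10.23 in muscle and 4.65 and 4.78 in marrow. It was at least 112-fold and 71.5-fold above bone marrow, but only 2.05 ± 0.20 and 1.39 ± 0.20 above muscle. The type IV collagen chains Col4a1 and Col4a2 had smallest differences of 1.64 ± 0.41 (osteosarcoma minus muscle) and 1.44 ± 0.46 (osteosarcoma minus muscle), and both calls were lost without muscle 2 (Col4a2 also without osteosarcoma 3 or 4). Col18a1, the precursor of endostatin, rose more in leiomyosarcoma (3.78 ± 0.45 over muscle) than in osteosarcoma (2.09 ± 0.45), and the difference between the tumours was -1.70 ± 0.37 (adjusted p 0.0129). Nid2 (nidogen 2) rose by 1.78 ± 0.43 and 2.20 ± 0.43 over muscle, a call lost without muscle 2. With the background level as a block, Col18a1, Col4a1, Col4a2 and Nid2 were not called in all 4 contrasts.

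**Figure D2:**
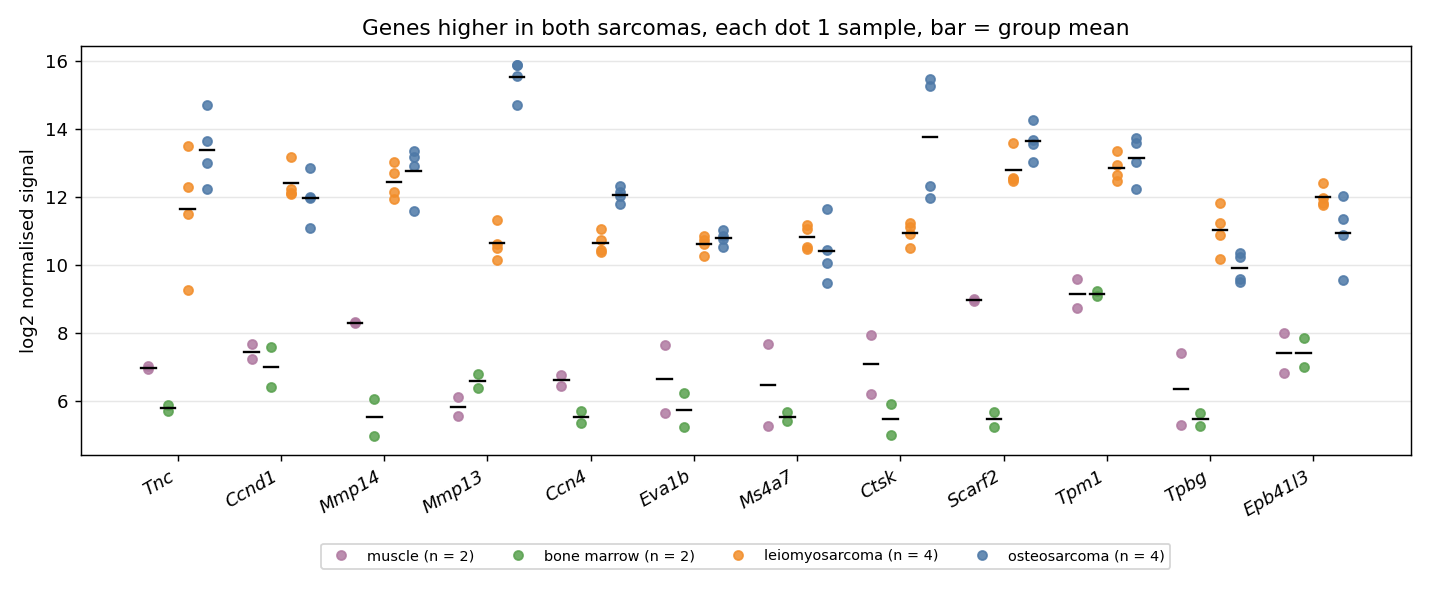
Log2 normalised signal of 12 higher genes, those with the largest smallest difference among genes detected in every group whose tumour and normal samples do not overlap. Each dot is 1 sample and each bar a group mean (n = 2 for muscle and bone marrow, n = 4 for each tumour). The gap between tumours and normal samples was a condition of the choice.

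Collagen needs a set of enzymes and chaperones in the endoplasmic reticulum before it can be secreted and crosslinked. Of 19 such genes measured, 10 were higher in both tumours and 0 lower, and the median difference was 2.96. Calls upward were 13 and 14 in leiomyosarcoma against muscle and bone marrow, and 16 and 18 in osteosarcoma. Serpinh1, the collagen chaperone HSP47, measured 14.72, 14.25, 14.25 and 13.98 in the leiomyosarcomas and 15.84, 15.75, 14.61 and 15.56 in the osteosarcomas, against 11.70 and 10.47 in muscle and 6.19 and 6.84 in marrow. All 8 tumours lay above the normal samples, the tumour types overlapped, and the smallest difference was 3.22 ± 0.41 (leiomyosarcoma minus muscle) (3.83 without muscle 1 and 2.60 without muscle 2), with a second probe at 3.28.

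Pcolce, an enhancer of the procollagen C-proteinase, rose by 3.17 ± 0.44 and 4.21 ± 0.44 over muscle (3.88 without muscle 1 and 2.46 without muscle 2 for the first) and at least 48.4-fold and 99.2-fold over bone marrow, where it was not detected. Bmp1, which encodes that C-proteinase, rose by 2.34 ± 0.48 and 3.72 ± 0.48 over muscle (3.24 without muscle 1 and 1.44 without muscle 2 for the first, 4.62 without muscle 1 and 2.82 without muscle 2 for the second), and its 3 other probes ran upward by smallest differences of 0.0021 to 2.38. Crtap and P3h3, both tied to prolyl 3-hydroxylation of collagen, also rose: Crtap by 2.29 ± 0.28 (leiomyosarcoma minus muscle) at its smallest, and P3h3, not detected in normal tissue, at least 4.05-fold and 4.74-fold over muscle. Crtap was also higher in osteosarcoma than in leiomyosarcoma by 1.52 ± 0.23 (adjusted p 0.00161). The other shared members were Plod1, Plod2, Lox, Fkbp7 and P3h1.

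Matrix proteases and their inhibitors counted 8 of 21 higher in both tumours and 0 lower, with a median difference of 2.49. Mmp13, collagenase 3, which cuts fibrillar collagen in cartilage and bone, measured 11.31, 10.62, 10.14 and 10.51 in the leiomyosarcomas and 15.56, 15.89, 14.70 and 15.89 in the osteosarcomas, against 6.10 and 5.56 in muscle and 6.38 and 6.80 in marrow. It stood in 3 separate tiers, with the normal tissues lowest, the leiomyosarcomas between and the osteosarcomas at the top of the range. Its rise over bone marrow was 4.05 ± 0.38 in leiomyosarcoma and 8.92 ± 0.38 in osteosarcoma. Its 2 other detected probes also ran upward in osteosarcoma, by 5.64 and 1.88 over muscle and by 5.71 and 2.62 over bone marrow. In leiomyosarcoma they differed by only 0.12 and -0.64 from muscle and 0.19 and 0.10 from bone marrow, so the leiomyosarcoma rise rests on the probe used.

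Mmp14, the membrane-bound metalloproteinase that cuts collagen at the cell surface, measured 12.69, 13.04, 12.14 and 11.93 in the leiomyosarcomas and 13.16, 11.59, 12.92 and 13.35 in the osteosarcomas, against 8.28 and 8.32 in muscle and 4.97 and 6.07 in marrow. The tumour types overlapped, all 8 tumours lay above the normal samples, and the smallest difference was 4.15 ± 0.49 (leiomyosarcoma minus muscle). Ctsk, cathepsin K, the collagen-degrading protease of osteoclasts, measured 11.13, 10.49, 11.24 and 10.90 in the leiomyosarcomas and 15.27, 11.96, 12.31 and 15.48 in the osteosarcomas, against 7.95 and 6.22 in muscle and 5.001 and 5.92 in marrow. Osteosarcomas 1 and 4 lay far above all other samples. The difference of leiomyosarcoma from muscle was 3.86 ± 0.92 (4.72 without muscle 1 and 2.99 without muscle 2), and the call was lost without muscle 2. Timp1, an inhibitor of metalloproteinases, rose by 2.85 ± 0.47 and 3.40 ± 0.47 over muscle (2.24 without muscle 1 and 3.46 without muscle 2 for the first). Adamts4, an aggrecan-cutting protease, was detected in all tumours and in 0 of 4 normal samples, at least 7.41-fold higher in leiomyosarcoma than in muscle.

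The RefSeq sequence (GRCm38.p6) before the start of 3 shared genes is shown because these genes stood for the matrix, protease and cytoskeletal rises. Each is the 250 bases upstream of the start, read 5′ to 3′ along the gene. Capitals mark letters found by a search on both strands. The TATA box was searched as TATAAA. The AP-1 site was searched as TGANTCA. The CCAAT box was searched by the letters of its name. The TEAD site was searched as GGAATG. No marked letters of different motifs overlapped in these 3 sequences. The genes shown and the 4 motifs marked were picked from 20 motifs searched, after values were seen. Mmp13 lies at chr9:7272264-7272513, forward strand, Col1a2 at chr6:4505368-4505617, forward strand, and Tpm1 at chr9:67049214-67049463, reverse strand.
Mmp13: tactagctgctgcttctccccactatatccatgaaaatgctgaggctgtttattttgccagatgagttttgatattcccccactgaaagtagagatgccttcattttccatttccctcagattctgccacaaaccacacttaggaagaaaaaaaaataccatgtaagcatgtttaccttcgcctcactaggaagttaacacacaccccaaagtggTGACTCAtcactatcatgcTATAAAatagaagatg
Col1a2: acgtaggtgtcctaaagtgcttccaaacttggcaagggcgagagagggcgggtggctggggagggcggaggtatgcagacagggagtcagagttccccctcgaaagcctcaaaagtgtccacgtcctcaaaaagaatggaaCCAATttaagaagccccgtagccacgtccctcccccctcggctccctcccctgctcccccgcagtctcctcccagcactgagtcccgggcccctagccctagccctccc
Tpm1: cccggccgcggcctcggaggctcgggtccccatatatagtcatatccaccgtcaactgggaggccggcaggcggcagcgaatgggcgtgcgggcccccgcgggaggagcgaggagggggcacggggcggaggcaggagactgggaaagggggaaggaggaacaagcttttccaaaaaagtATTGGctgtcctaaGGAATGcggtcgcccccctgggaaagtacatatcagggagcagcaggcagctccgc

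In the Mmp13 sequence an AP-1 site began 35 bases and a TATA box 16 bases before the start. The Col1a2 window held CCAAT 109 bases before the start, and Tpm1 held CCAAT on the other strand at 70 and the TEAD letters at 56. Over 361 higher genes with an entry, 6.37% of windows held the AP-1 letters, beside 4.86% of 9458 windows of all tested genes. The shares were 8.59% and 7.78% for TATAAA, 13.9% and 10.9% for the TEAD letters, and 29.6% and 36.3% for CCAAT. The 104 windows of lower genes gave 5.77%, 6.73%, 12.5% and 36.5% for AP-1, TATAAA, TEAD and CCAAT. These matches are a description of letters and do not show that a factor bound there.

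Growth factors, their binding proteins and receptor tyrosine kinases counted 8 of 29 higher in both tumours and 0 lower (median difference 1.66). Ptn, the heparin-binding growth factor pleiotrophin, was not detected in either normal tissue and measured 10.99, 10.48, 9.93 and 11.36 in the leiomyosarcomas and 10.27, 9.54, 10.31 and 9.78 in the osteosarcomas, against 5.25 and 5.31 in muscle and 4.97 and 4.52 in marrow. It was detected in all 8 tumours and in 0 of 4 normal samples, and the fold was at least 33.9 in leiomyosarcoma and 20.6 in osteosarcoma over muscle. The ligand gene Pdgfc rose by 3.45 ± 0.46 and 3.21 ± 0.46 over muscle (4.42 without muscle 1 and 2.47 without muscle 2 for the first), and a second probe ran upward by only 0.01. Igfbp3, a carrier of insulin-like growth factors, rose by 3.09 ± 0.40 and 3.03 ± 0.40, with osteosarcoma 2 at 9.38, below the other tumours of its type.

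Of the receptors, Fgfr2, for fibroblast growth factors, measured 6.51, 8.19, 6.99 and 7.51 in the leiomyosarcomas and 10.65, 11.29, 10.57 and 11.37 in the osteosarcomas, against 5.10 and 4.75 in muscle and 5.87 and 4.75 in marrow. All tumours were higher than all normal samples, and the osteosarcomas were a separate higher group. The probe used was not detected in muscle, so its muscle values are at background. The leiomyosarcoma rise over bone marrow was 1.98 ± 0.45 and its call was lost without bone marrow 2, while a second probe did not run one way. Pdgfra, the receptor that binds the product of Pdgfc, rose by 2.42 ± 0.76 and 2.14 ± 0.76 over muscle, but its largest adjusted p was 0.038 and the call was lost without any 1 of 5 arrays, all 4 normal ones among them. Its rise over muscle in osteosarcoma was 1.35 without osteosarcoma 2. Osteosarcoma 2 stood out in Pdgfra at 13.35, against 9.44 to 10.58 in the other osteosarcomas. Axl, the receptor for Gas6, rose by 2.95 ± 0.41 in leiomyosarcoma and 1.31 ± 0.41 in osteosarcoma over muscle, differed by -1.64 ± 0.33 (osteosarcoma minus leiomyosarcoma), and lost its shared call without muscle 2. Ddr2, a receptor for collagen, and Igfbp7 completed the list.

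Axon guidance genes, which steer growing nerve fibres and are used by many other cells, counted 7 of 20 higher and 0 lower (median 2.06). The secreted ligand Slit2 measured 7.35, 8.12, 9.78 and 9.52 in the leiomyosarcomas and 10.19, 9.58, 8.25 and 10.37 in the osteosarcomas, against 5.04 and 4.66 in muscle and 4.64 and 4.70 in marrow. Its receptor gene Robo1 measured 7.94, 7.63, 7.65 and 8.35 in the leiomyosarcomas and 8.40, 8.47, 8.84 and 8.65 in the osteosarcomas, against 5.11 and 4.57 in muscle and 4.71 and 5.08 in marrow. Both were above every normal sample in all 8 tumours. The second Robo1 probe ran the other way by -0.44 at its smallest, so the rise of Robo1 rests on 1 probe, and the 3 other Slit2 probes ran upward by 0.30 to 0.73. Plxnb2, a semaphorin receptor, had a smallest difference of 2.01 ± 0.25 (osteosarcoma minus bone marrow) and Efnb1, a membrane ligand of Eph receptors, of 1.55 ± 0.36 (leiomyosarcoma minus muscle), the latter lost without muscle 1. Sema5a had a smallest difference of 3.16 ± 0.34 on the probe used and of 3.30 on another, while the remaining probe ran downward by -0.28. Nrp2 and Unc5b were the other 2.

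Wnt pathway genes counted 4 of 18 higher and 0 lower (median 0.87). Against muscle, 7 were higher and 3 lower in leiomyosarcoma, and 5 higher and 1 lower in osteosarcoma. Ror2, a receptor for Wnt5a, was not detected in any normal sample and measured 8.92, 8.13, 8.99 and 8.81 in the leiomyosarcomas and 6.76, 7.10, 6.81 and 7.22 in the osteosarcomas. The leiomyosarcomas lay above all osteosarcomas, by 1.74 ± 0.21 (limma, adjusted p 0.000466), and the folds over muscle were at least 8.58 and 2.57. Fzd1 and Sfrp2 had largest adjusted p of 0.00722 and 0.0386, and their calls were lost without any 1 of 3 and of 6 arrays. Ctnnb1 (beta-catenin) had a smallest difference of 1.10 ± 0.19 (leiomyosarcoma minus muscle), but of its 3 other probes 1 ran downward by -0.81, 1 upward by 0.80 and 1 did not run one way. Ccn4, a secreted matricellular protein first known as a Wnt-induced gene and not in the list, measured 10.39, 11.05, 10.44 and 10.74 in the leiomyosarcomas and 11.78, 12.14, 12.01 and 12.33 in the osteosarcomas, against 6.78 and 6.45 in muscle and 5.36 and 5.69 in marrow. Its smallest difference was 4.04 ± 0.25 (leiomyosarcoma minus muscle), and a second probe gave 0.84.

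TGF beta and BMP pathway genes counted 4 of 26 higher and 0 lower (median 1.304), namely Tgfbr2, Id3, Bmp1 and Ccn2. Ccn2, connective tissue growth factor, also a target of YAP and TEAD, measured 12.59, 11.64, 12.65 and 12.43 in the leiomyosarcomas and 12.80, 12.57, 12.71 and 14.04 in the osteosarcomas, against 10.71 and 11.25 in muscle and 5.69 and 6.07 in marrow. All tumours lay above the muscle samples and far above marrow. The rise was 1.35 ± 0.41 and 2.05 ± 0.41 over muscle against 6.45 ± 0.41 and 7.15 ± 0.41 over bone marrow. Its call was lost without muscle 1. Tgfbr2, a TGF beta receptor, rose by 2.16 ± 0.40 and 1.54 ± 0.40 over muscle, was lost without muscle 2, and its other probes gave 0.18 and no single direction. Id3, a BMP-induced inhibitor of helix-loop-helix factors, rose by 1.72 ± 0.40 and 2.85 ± 0.40, lost without muscle 1 (the first 1.12 without muscle 1 and 2.32 without muscle 2).

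YAP and TEAD targets and partners counted 4 of 16 higher and 0 lower (median 1.62). In each tumour, 6 of the 16 were higher and 3 lower than muscle. The median over muscle was only 0.15 in leiomyosarcoma and 0.47 in osteosarcoma, and over bone marrow 3.14 and 3.52. Tead2, a DNA-binding partner of YAP, rose by 3.28 ± 0.37 and 3.42 ± 0.37 over muscle and at least 9.78-fold and 10.7-fold over bone marrow. Wwtr1, which encodes the YAP relative TAZ, rose by 2.41 ± 0.34 and 1.26 ± 0.34 over muscle, lost its call without muscle 2, and had 2 other probes that did not run one way. Yap1 itself was not shared. It measured 7.61, 7.38, 7.85 and 7.47 in the leiomyosarcomas and 7.83, 13.58, 7.51 and 7.45 in the osteosarcomas, against 6.83 and 7.83 in muscle and 4.41 and 4.55 in marrow, so a single osteosarcoma stood far above the other 3.

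Mesenchymal transcription factors counted 4 of 17 higher and 0 lower (median 1.63). Snai2, which represses epithelial genes, measured 8.78, 8.49, 8.18 and 7.99 in the leiomyosarcomas and 9.93, 8.92, 8.79 and 9.67 in the osteosarcomas, against 5.78 and 5.23 in muscle and 4.67 and 4.85 in marrow. Twist1, a helix-loop-helix factor of mesenchyme, rose by 2.10 ± 0.26 and 1.77 ± 0.26 over muscle and 2.44 ± 0.26 and 2.11 ± 0.26 over bone marrow. Both separated all tumours from all normal samples. Snai1, the relative of Snai2, had a smallest difference of 2.12 ± 0.46 (osteosarcoma minus muscle; 1.304 without muscle 1 and 2.93 without muscle 2) and lost its call without muscle 1. Tcf4, an E protein, rose by 1.73 ± 0.24 and 1.07 ± 0.24 over muscle and lost its call without muscle 2. Fibroblast and perivascular markers counted 2 of 16, Pdgfra and Islr, and Islr lost its call without any 1 of 9 arrays. Of the 16, 6 were higher and 1 lower than muscle in leiomyosarcoma, and 5 higher and 4 lower in osteosarcoma.

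The genes of cell division were mostly higher in both tumours than in muscle, but almost none was higher than in bone marrow. Of 22 mitosis genes, 20 were higher than muscle in each tumour, while 1 was higher than bone marrow in each and 7 and 4 were lower in leiomyosarcoma and osteosarcoma. Of 26 DNA replication genes, 24 were higher than muscle in each tumour and 0 were higher than bone marrow, with 9 and 10 lower. The only mitosis gene called in all 4 contrasts was Kif23, of the central spindle, with a smallest difference of 1.71 ± 0.43 (leiomyosarcoma minus muscle). Its 3 other detected probes did not run one way, and the call was lost without muscle 2 (2.45 without muscle 1 and 0.97 without muscle 2). Chromatin modifiers had the same shape, with 6 and 7 of 15 higher than muscle and 4 and 3 lower than bone marrow.

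Of 18 G1 genes, 2 were higher and 1 lower in both tumours. Ccnd1, cyclin D1, which drives entry into the cycle through Cdk4 and Cdk6, measured 12.23, 12.10, 13.16 and 12.08 in the leiomyosarcomas and 11.10, 12.86, 12.002 and 11.96 in the osteosarcomas, against 7.68 and 7.23 in muscle and 7.58 and 6.40 in marrow. The tumours overlapped each other and lay above all normal samples. The smallest difference was 4.53 ± 0.48 (osteosarcoma minus muscle) with a largest adjusted p of 2.21e-05, and the 2 other probes gave 4.13 and 4.14.

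Cdkn2a, which encodes the inhibitor p16Ink4a and the p53 activator p19Arf, measured 8.09, 9.75, 8.53 and 8.19 in the leiomyosarcomas and 6.81, 7.57, 7.52 and 6.99 in the osteosarcomas, against 4.59 and 4.72 in muscle and 4.55 and 4.48 in marrow. All tumours lay above all normal samples, and leiomyosarcoma exceeded osteosarcoma (-1.42 ± 0.33 for osteosarcoma minus leiomyosarcoma, adjusted p 0.0185). The probe used was not detected on any normal array, so its normal values are at background. The other 2 probes ran upward by 0.68 and 0.48 at their smallest, the latter on the probe detected on all 12 arrays. Rb1, the retinoblastoma protein on which cyclin D1 acts, measured 8.42, 8.31, 8.44 and 7.69 in the leiomyosarcomas and 8.73, 8.94, 8.01 and 8.84 in the osteosarcomas, against 9.26 and 11.07 in muscle and 10.09 and 10.21 in marrow. All tumours were below all normal samples, with a smallest difference of -1.52 ± 0.44 (osteosarcoma minus bone marrow) and -1.87 on another probe, but the call was lost without muscle 2, bone marrow 1 or bone marrow 2 and with the background level as a block.

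None of 28 measured p53 target genes was called by limma in all 4 contrasts, beside 3.89% higher and 1.08% lower of all genes tested, and their median difference was 0.04. Rbm38, described among the lower genes, is also known as a p53 target but is not in this list. In the single contrasts, 4, 6, 5 and 6 were higher and 7, 3, 4 and 5 lower (leiomyosarcoma against muscle and bone marrow, then osteosarcoma against each). Cdkn1a, the p53-induced inhibitor p21, measured 9.06, 8.98, 8.81 and 9.19 in the leiomyosarcomas and 10.79, 9.67, 10.85 and 8.61 in the osteosarcomas, against 9.18 and 13.58 in muscle and 8.25 and 8.77 in marrow. The 2 muscle samples differed more from each other than any tumour did from bone marrow. Mdm2, the ligase that degrades p53, differed by -1.25 ± 0.26 and -0.80 ± 0.26 from muscle and -1.11 ± 0.26 and -0.65 ± 0.26 from bone marrow, and the osteosarcoma contrasts did not pass. Ccng1 differed by -4.28 ± 0.30 and -4.08 ± 0.30 from muscle and by -0.25 ± 0.30 and -0.05 ± 0.30 from bone marrow. Of other regulators, Myc, Ezh2 and Kit were not shared. Kit, a receptor of blood precursors, differed by -1.77 ± 0.36 and -2.69 ± 0.36 from bone marrow, while in muscle it was not detected.

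Genes of the unfolded protein response and secretory pathway counted 5 of 23 higher and 0 lower (median 0.93). Kdelr3, a receptor that returns resident proteins to the endoplasmic reticulum, measured 11.84, 11.23, 11.10 and 11.69 in the leiomyosarcomas and 11.34, 11.83, 12.03 and 11.49 in the osteosarcomas, against 8.43 and 6.64 in muscle and 5.09 and 4.65 in marrow. It was not detected in bone marrow, and the folds there were at least 63.6 and 73.6. Sec24d, a coat protein of vesicles that carry procollagen, had a smallest difference of 2.70 ± 0.26 (osteosarcoma minus bone marrow), with 0.20 on a second probe. The disulfide isomerases Pdia3 and Pdia4 and the stress factor Ddit3 had smallest differences of 1.005 ± 0.21, 1.06 ± 0.19 and 1.18 ± 0.34, and each lost its call without 1 to 3 single arrays.

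In 4 metabolic lists no gene was called in all 4 contrasts, beside 3.89% higher and 1.08% lower of all genes tested. Of 21 fatty acid oxidation genes, 19 and 18 were lower than muscle in leiomyosarcoma and osteosarcoma, while 1 and 0 were lower than bone marrow. The respiratory chain had 17 and 13 of 19 lower than muscle and 0 lower than bone marrow in either tumour, and the tricarboxylic acid cycle 10 of 13 in each tumour and 0. Glycolysis had 5 higher and 8 lower of 19 against muscle in each tumour. Circadian clock genes ran in opposite directions, with 9 and 8 of 13 lower than muscle and 7 higher than bone marrow in each tumour. Shared counts were 0 in these lists, in the cytoplasmic ribosomal proteins (0 of 14), in chromatin modifiers (0 of 15) and in heat shock and immediate early genes (0 of 21).

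A few shared genes came from lists with 1 member each. Aldh18a1, which makes the precursor of proline, was the 1 of 18 nucleotide and amino acid synthesis genes, and it measured 9.09, 8.86, 8.80 and 9.44 in the leiomyosarcomas and 8.10, 8.12, 7.90 and 8.16 in the osteosarcomas, against 5.09 and 5.84 in muscle and 6.90 and 6.81 in marrow. Prodh, which starts the breakdown of proline, was among the 12 largest falls and measured 6.11, 6.26, 6.16 and 5.74 in the leiomyosarcomas and 6.41, 6.47, 6.98 and 5.63 in the osteosarcomas, against 8.58 and 8.29 in muscle and 9.32 and 9.75 in marrow. Tumours and normal samples did not overlap in either gene. Aldh18a1 lost its call with the background level as a block. Stc1 (1 of 17 hypoxia genes), Itga3 (1 of 16 integrins), Dpysl3 (1 of 16 neural genes) and Gnl3 (1 of 16 ribosome biogenesis genes) were the others. Stc1 was at least 4.61-fold above muscle in osteosarcoma, and the smallest differences of the other 3 were 1.305 ± 0.38, 2.43 ± 0.35 and 1.3003 ± 0.39. Itga3 lost its call without muscle 1 (largest limma adjusted p 0.124), and Gnl3 lost its call without muscle 2, bone marrow 1 or bone marrow 2 (0.165, 0.101 and 0.0878).

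**Figure D3:**
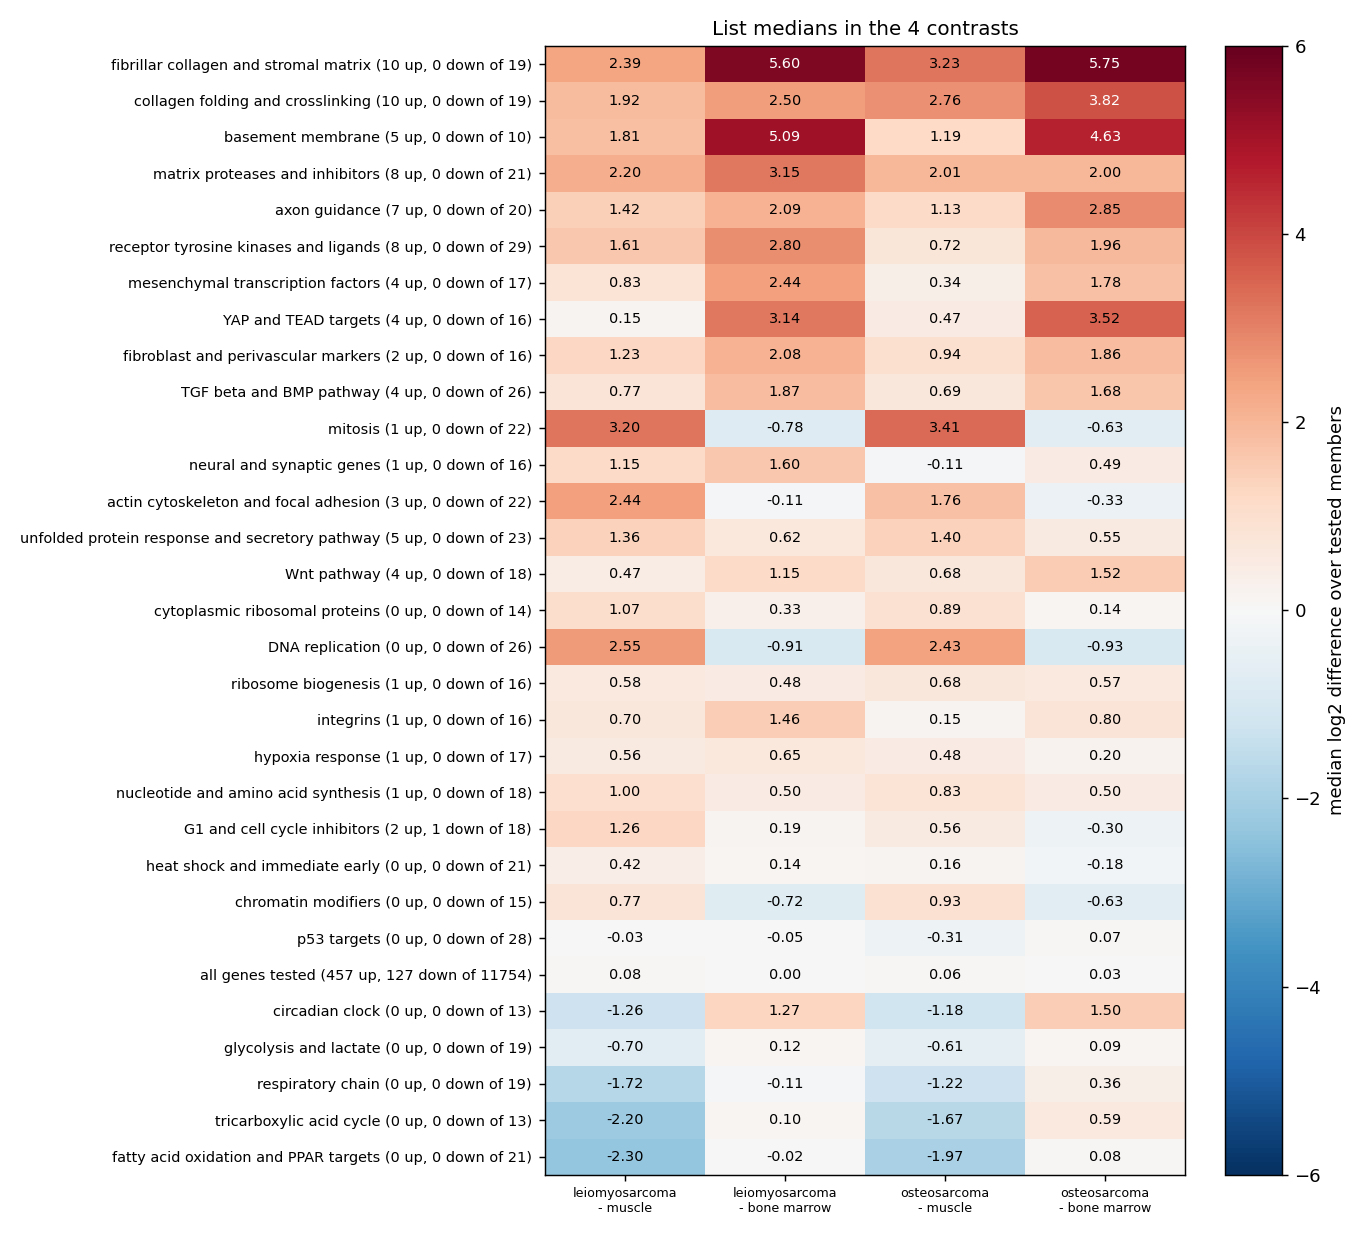
Median log2 difference over the measured members of each of 30 lists and over all 11754 genes, in the 4 contrasts, with the counts of shared genes beside each name. Red is higher in the tumour and blue lower. Matrix lists are red in all 4 columns, whereas mitosis and DNA replication are red against muscle and pale blue against bone marrow.

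Actin cytoskeleton genes counted 3 of 22 higher and 0 lower (median 0.95). Tpm1, a tropomyosin that winds along actin filaments, measured 12.94, 12.48, 13.35 and 12.63 in the leiomyosarcomas and 13.02, 13.73, 12.23 and 13.58 in the osteosarcomas, against 9.58 and 8.73 in muscle and 9.23 and 9.08 in marrow. The 4 normal samples overlapped and lay below all 8 tumours, and the smallest difference was 3.69 ± 0.41 (leiomyosarcoma minus bone marrow), with 3.07 on a second probe. Muscle is rich in its own tropomyosin forms, and the probe used does not show which transcript forms it reads. Tpm4 rose by 3.78 ± 0.29 and 2.85 ± 0.29 over muscle and 2.28 ± 0.29 and 1.35 ± 0.29 over bone marrow, but 1 of its 2 other probes did not run one way. Fscn1, the actin-bundling protein fascin, rose by 3.16 ± 0.45 and 3.24 ± 0.45 over muscle. Cald1, caldesmon, was the 1 of 11 smooth muscle genes called in all 4 contrasts. It was at least 2.09-fold above bone marrow in leiomyosarcoma, with 0.16 to 1.52 on its 4 other probes. Of the 11, 1 was higher and 4 lower than muscle in each tumour. Against bone marrow, 1 was higher in leiomyosarcoma and 2 in osteosarcoma, and 0 were lower.

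Several of the largest rises belonged to none of the lists. Scarf2, of the scavenger receptor family, measured 13.58, 12.47, 12.52 and 12.55 in the leiomyosarcomas and 14.27, 13.55, 13.68 and 13.03 in the osteosarcomas, against 9.01 and 8.93 in muscle and 5.69 and 5.23 in marrow. Tpbg, the oncofetal membrane protein 5T4, measured 11.82, 10.18, 11.25 and 10.89 in the leiomyosarcomas and 10.24, 10.34, 9.60 and 9.49 in the osteosarcomas, against 7.40 and 5.28 in muscle and 5.65 and 5.27 in marrow. In both genes every tumour exceeded every normal sample, without overlap; the Tpbg difference of leiomyosarcoma from muscle was 5.75 without muscle 1 and 3.64 without muscle 2. Eva1b had a smallest difference of 3.98 ± 0.46 (leiomyosarcoma minus muscle) (4.98 without muscle 1 and 2.97 without muscle 2). Epb41l3, a membrane skeleton protein, had one of 3.53 ± 0.57 (osteosarcoma minus bone marrow), with a second probe of no single direction.

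Among genes not detected in at least 1 normal group, Ptgis, prostacyclin synthase, rose by 3.97 ± 0.53 and 4.97 ± 0.53 over muscle (4.73 without muscle 1 and 3.20 without muscle 2 for the first) and at least 83.8-fold and 168-fold over bone marrow. Cthrc1, a secreted protein of injured vessels and stroma, rose by 3.89 ± 0.85 over muscle in leiomyosarcoma (5.15 without muscle 1 and 2.63 without muscle 2) and lost its call without muscle 2. Bok, a BCL2 family member, was at least 12.8-fold and 25.5-fold above muscle, with 0.47 on a second probe. Snhg18, a long non-coding RNA, was at least 53.4-fold and 73.5-fold above bone marrow. Prss35 was detected in all tumours and in 0 normal samples, and it measured 10.65, 8.06, 10.30 and 9.74 in the leiomyosarcomas and 10.23, 6.27, 10.58 and 10.28 in the osteosarcomas, with osteosarcoma 2 far below the rest.

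Markers of macrophages were higher in both tumours in 6 of 12 measured genes and lower in 0, although 1 was lower than muscle in each tumour. Over the 12 markers, the median difference was 2.69. Their summed signal was 23813 to 28721 in leiomyosarcoma and 7562 to 17250.3 in osteosarcoma, against 2229.7 to 4995 in muscle and 1766 to 2254 in bone marrow, so every tumour exceeded every normal sample and the leiomyosarcomas exceeded the osteosarcomas. The members were Csf1r, the receptor that macrophages need to survive, the complement chains C1qa, C1qb and C1qc, Trem2 and Lgmn. C1qa measured 10.41, 9.73, 10.18 and 10.03 in the leiomyosarcomas and 8.69, 9.05, 9.69 and 7.68 in the osteosarcomas, against 6.69 and 5.37 in muscle and 4.96 and 4.68 in marrow. C1qb and C1qc rose by 2.24 ± 0.64 and 2.25 ± 0.64 over muscle in osteosarcoma, and both lost their calls without muscle 2. These differences were 3.28 without muscle 1 and 1.20 without muscle 2 for C1qb, and 3.23 without muscle 1 and 1.27 without muscle 2 for C1qc. Tumours and normal samples overlapped in both genes, with osteosarcoma 4 below muscle 1 (9.93 against 10.01 in C1qb, 8.95 against 9.01 in C1qc). Trem2, a lipid-sensing receptor, and Lgmn, the lysosomal protease legumain, had smallest differences of 1.95 ± 0.48 (osteosarcoma minus bone marrow) and 1.60 ± 0.42 (osteosarcoma minus muscle), lost without bone marrow 1 and without muscle 1.

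Ms4a7, a gene of tissue macrophages outside the list, was among the 12 largest rises and measured 10.54, 11.06, 11.16 and 10.47 in the leiomyosarcomas and 10.43, 10.06, 11.63 and 9.48 in the osteosarcomas, against 7.66 and 5.27 in muscle and 5.66 and 5.41 in marrow. The rise over muscle in osteosarcoma was 3.93 ± 0.63 (5.12 without muscle 1 and 2.74 without muscle 2). Cxcl16, a chemokine and scavenger receptor that macrophages also make, was at least 21.6-fold and 14-fold above muscle, with 1.87 on a second probe. The part of macrophage RNA in the other shared genes was not tested.

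Osteoclast markers counted 2 of 6, Ctsk and Tnfrsf11a (RANK), and summed to 1683 to 2791 in leiomyosarcoma and 4326 to 50215 in osteosarcoma, against 232 to 412 in muscle and 172 to 209 in bone marrow. Osteosarcomas 1 and 4, the samples highest in Ctsk, were also highest in this sum, at 42284 and 50215. Ctsk is itself 1 of the 6 markers summed, so the sum is no separate reading of it. Of the 6 markers, 5 were not detected in bone marrow and 4 not in muscle. The part of osteoclasts in the rise of Ctsk was not tested. Endothelial markers counted 1 of 12, and Emcn (endomucin) at 1.08 ± 0.38 (leiomyosarcoma minus muscle) lost its call without any 1 of 5 arrays. The sum of the 12 endothelial markers was 5068 to 8849 in leiomyosarcoma and 4294 to 10263 in osteosarcoma, against 5540.2 to 6137 in muscle and 1209.8 to 1328 in bone marrow, overlapping between the tumours and muscle. Chondrocyte (5 measured), erythroid (6), B lymphoid (8) and T and NK lymphoid (8) markers had 0 shared genes. Over all genes tested, 3.89% were higher and 1.08% lower, so 0 in such short lists says little. Against bone marrow, 5 and 4 erythroid markers were lower in leiomyosarcoma and osteosarcoma. The B lymphoid list had 4 and 5 lower, and the T and NK lymphoid list also 4 and 5.

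**Figure D4:**
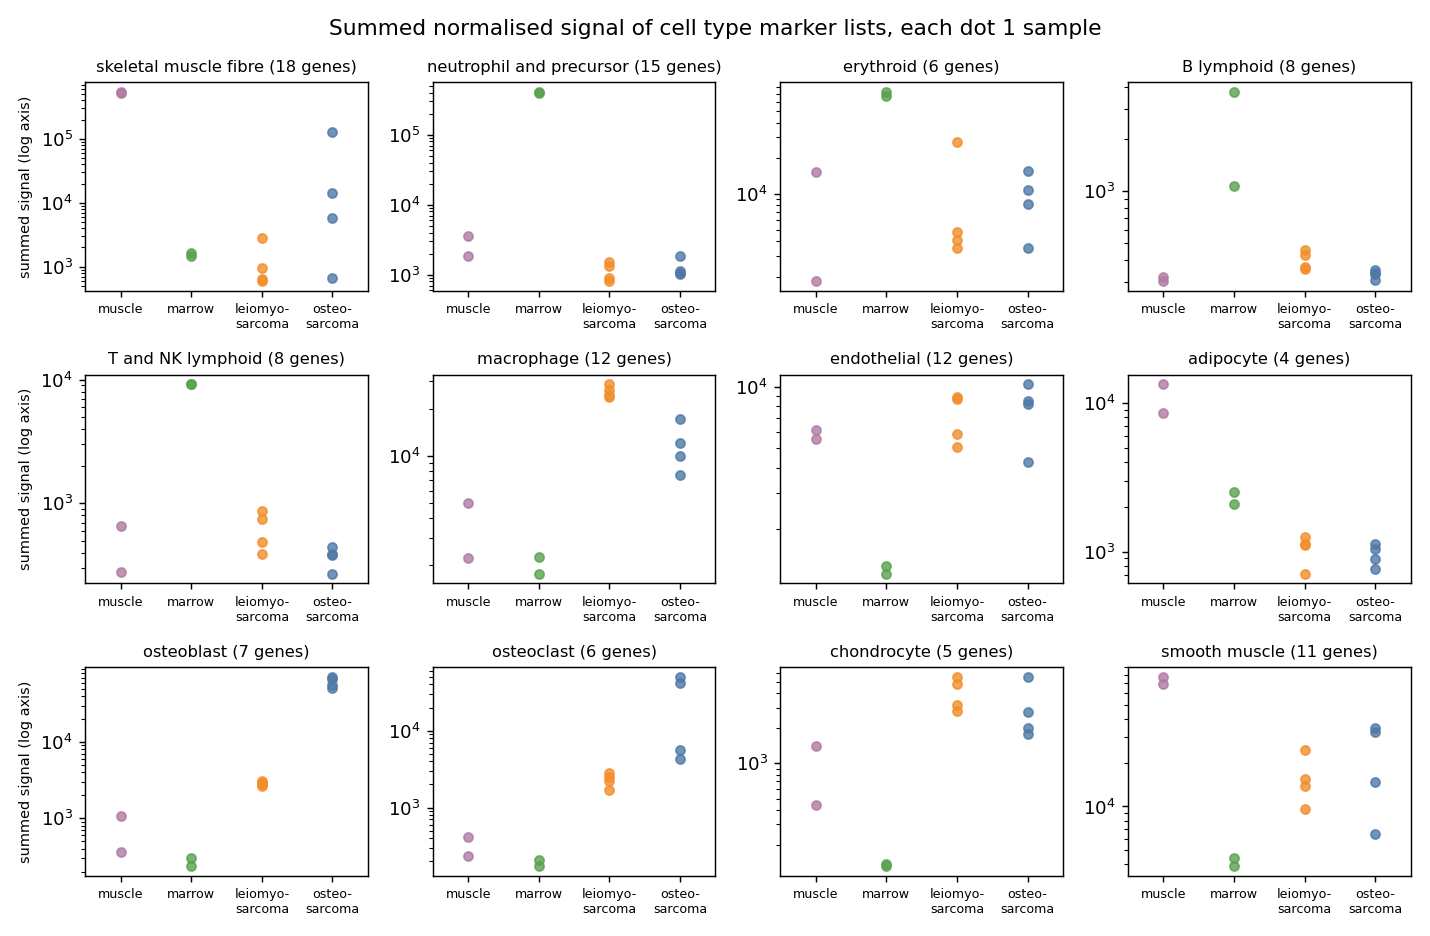
Summed normalised signal, on a log axis, of 12 marker lists in each sample (2 muscle, 2 bone marrow, 4 leiomyosarcoma and 4 osteosarcoma samples, 1 dot each). Macrophage sums lie above both normal tissues in all 8 tumours. Skeletal muscle fibre sums spread from 667 to 128478 over the osteosarcomas.

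The lower set was smaller, and none of the lists held more than 2 of its genes. The lists were chosen with earlier results of these data known, so how widely its functions spread was not tested. Rbm38, an RNA-binding protein that is a known p53 target in human and mouse cells, had the largest fall of genes detected in every group. It measured 6.82, 7.10, 5.83 and 6.41 in the leiomyosarcomas and 6.97, 6.50, 7.26 and 6.67 in the osteosarcomas, against 10.22 and 10.16 in muscle and 10.43 and 10.36 in marrow. The 4 normal samples lay close together and all 8 tumours lay below them, with no overlap. The smallest difference was -3.34 ± 0.33 (osteosarcoma minus muscle) with a largest adjusted p of 1.34e-05, and 2 other probes gave -1.38 and -2.78.

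G0s2, Dgat2 and Pnpla2 act on stored fat. G0s2, the inhibitor of the lipase that Pnpla2 encodes, measured 5.59, 5.08, 5.05 and 4.97 in the leiomyosarcomas and 5.33, 4.93, 4.92 and 4.98 in the osteosarcomas, against 7.59 and 8.34 in muscle and 8.55 and 8.41 in marrow. Dgat2, which makes triglyceride, measured 6.91, 6.22, 6.02 and 6.42 in the leiomyosarcomas and 6.35, 7.01, 5.31 and 6.75 in the osteosarcomas, against 8.03 and 9.15 in muscle and 9.63 and 9.88 in marrow. Pnpla2, the lipase ATGL itself, was the 1 of 4 adipocyte markers called lower in all 4 contrasts. Pnpla2 measured 9.98, 10.14, 9.97 and 9.22 in the leiomyosarcomas and 9.91, 9.59, 9.31 and 9.88 in the osteosarcomas, against 12.99 and 13.66 in muscle and 11.17 and 10.92 in marrow. All 3 genes were below every normal sample in all 8 tumours, and Pnpla2 lost its call without bone marrow 1. Of the adipocyte markers, 4 of 4 were lower than muscle in each tumour, and 2 and 1 lower than bone marrow in leiomyosarcoma and osteosarcoma. The 4 adipocyte markers summed to 709 to 1249 in leiomyosarcoma and 764 to 1119.6 in osteosarcoma. Their sum was 8539.9 to 13298 in muscle and 2089 to 2506 in bone marrow, with every tumour below every normal sample. Pnpla2 is itself 1 of the 4 markers summed, so the sum is no separate reading of its fall. The part of fat cells in the 3 falls was not tested.

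A pair of genes of fuel metabolism in muscle were also lower than in bone marrow. Adssl1, the muscle form of adenylosuccinate synthase, measured 9.71, 9.63, 10.12 and 10.16 in the leiomyosarcomas and 12.12, 9.76, 10.09 and 11.56 in the osteosarcomas, against 14.98 and 13.78 in muscle and 12.99 and 12.96 in marrow. Gyg, glycogenin, the primer of glycogen, measured 7.35, 6.97, 7.52 and 7.40 in the leiomyosarcomas and 7.62, 7.27, 7.29 and 7.26 in the osteosarcomas, against 10.63 and 9.97 in muscle and 9.27 and 9.59 in marrow. Osteosarcoma 1, the highest osteosarcoma in both genes, also had the highest sum of skeletal muscle fibre markers of the tumours, 128478 against 667, 5676 and 13989 in the other osteosarcomas. The part of muscle fibres in these levels was not tested. Without either bone marrow array, Adssl1 was no longer called. Of the 18 fibre markers, 0 were lower in all 4 contrasts, beside 1.08% of all genes tested, and 10 were not detected in bone marrow.

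Casz1, a zinc finger transcription factor, measured 5.20, 5.05, 5.29 and 5.24 in the leiomyosarcomas and 5.87, 4.95, 5.44 and 6.34 in the osteosarcomas, against 8.38 and 8.96 in muscle and 8.22 and 8.08 in marrow. Nup210, a membrane protein of the nuclear pore, measured 8.58, 7.81, 8.40 and 7.55 in the leiomyosarcomas and 7.98, 7.34, 8.27 and 7.38 in the osteosarcomas, against 10.56 and 10.24 in muscle and 11.67 and 12.32 in marrow. Both groups of tumours lay below both normal tissues in these genes. Exoc6, of the exocyst that docks secretory vesicles, and Trp53inp2, a factor in autophagy, had smallest differences of -2.05 ± 0.21 (leiomyosarcoma minus bone marrow) and -2.01 ± 0.35 (osteosarcoma minus bone marrow). Sort1, the sorting receptor sortilin, fell by 2.11 ± 0.64 at its smallest, with -2.12, -0.77 and -1.01 on 3 other probes, and lost its call without muscle 1 or muscle 2.

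**Figure D5:**
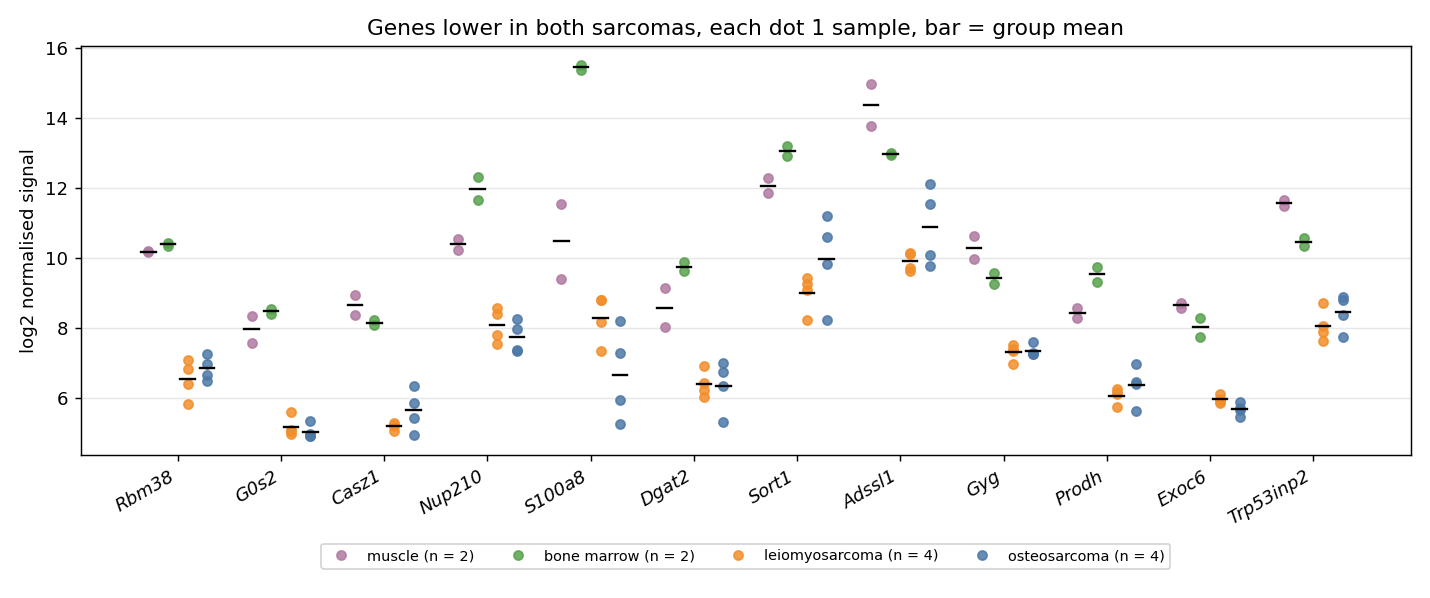
Log2 normalised signal of 12 lower genes, those with the largest smallest difference among genes detected in every group whose tumour and normal samples do not overlap; Pi16 was left out for its overlap. Each dot is 1 sample and each bar a group mean (n = 2 for muscle and bone marrow, n = 4 for each tumour). Here too the gap was a condition of the choice.

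Neutrophil markers fell against bone marrow in 15 of 15 genes in each tumour, and 2 of them, S100a8 and Lcn2, were lower than muscle in both tumours as well. In each tumour 1 marker was higher than muscle. S100a8, a subunit of calprotectin, measured 7.34, 8.79, 8.18 and 8.80 in the leiomyosarcomas and 8.22, 5.25, 7.28 and 5.96 in the osteosarcomas, against 9.42 and 11.55 in muscle and 15.39 and 15.54 in marrow. Lcn2, lipocalin 2, measured 5.06, 5.74, 5.62 and 4.94 in the leiomyosarcomas and 5.27, 4.74, 5.46 and 4.70 in the osteosarcomas, against 7.85 and 6.22 in muscle and 15.75 and 15.75 in marrow. The difference of leiomyosarcoma from muscle was -2.20 ± 0.78 in S100a8 (-3.27 without muscle 1 and -1.14 without muscle 2), and its call was lost without any 1 of 5 arrays. Lcn2 lost its call without muscle 1. The neutrophil sum was 805 to 1542 in leiomyosarcoma and 1033 to 1831 in osteosarcoma. It was 1853 to 3586 in muscle and 390756 to 409831 in bone marrow. Both muscle samples lay above all 8 tumours in this sum, which includes S100a8 and Lcn2 themselves. The median difference from muscle over the 15 markers was only -0.21 in leiomyosarcoma and -0.12 in osteosarcoma. Of the 15 markers, 9 were not detected in muscle and 6 not in leiomyosarcoma, and the part of blood cells in these falls was not tested.

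Some genes fell to no detection in a tumour group. Tuba8, an alpha-tubulin of muscle, measured 4.87, 4.58, 4.85 and 4.54 in the leiomyosarcomas and 5.34, 4.56, 4.55 and 4.55 in the osteosarcomas, against 11.23 and 11.17 in muscle and 8.48 and 8.58 in marrow, and it was at least 63.4-fold lower in leiomyosarcoma than in muscle and at least 9.96-fold lower than in bone marrow. A second probe gave -3.11. Cd55, which protects cells from complement, measured 5.97, 4.54, 5.02 and 4.46 in the leiomyosarcomas and 5.01, 4.68, 4.67 and 4.77 in the osteosarcomas, against 7.92 and 7.64 in muscle and 7.76 and 7.76 in marrow and was at least 5.85-fold lower in osteosarcoma than in muscle. Tmc7 was at least 9.4-fold lower in leiomyosarcoma than in muscle, and Orm1, an acute phase protein, at least 4.51-fold lower in osteosarcoma. The measured difference of Orm1 between osteosarcoma and muscle was -3.22 without muscle 1 and -1.61 without muscle 2. Cited4 was at least 2.76-fold lower in osteosarcoma than in bone marrow. Cdc14a, Map7 and Frat2 had smallest measured differences of -1.65 ± 0.20, -1.996 ± 0.45 and -1.64 ± 0.42, and Map7 lost its call without bone marrow 1 and Frat2 without muscle 1 (-0.61 without muscle 1 and -2.67 without muscle 2).

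Shared direction did not mean equal level. Of the 584 shared genes, 82 (14.04%) differed between osteosarcoma and leiomyosarcoma, where 7.65% of all genes tested did. In the higher set 47 were higher and 32 lower in osteosarcoma, and in the lower set 2 and 1. The median size of the difference between the tumours was 0.45 in the higher set, 0.24 in the lower set and 0.30 over all genes. With the background level as a block 40 of the shared genes were called. Between the normal tissues, 167 of the 584 (28.6%) differed, beside 40.1% of all genes. The rule used the same arrays, so nothing is read from either share.

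The shared genes with the largest excess in osteosarcoma among those named were Mmp13 (4.87 ± 0.31), Fgfr2 (3.67 ± 0.37), Col1a1 (3.11 ± 0.44) and Ctsk (2.82 ± 0.75), on limma adjusted p of 3.1e-06, 0.000105, 0.00117 and 0.0329. Among named higher genes called the other way, the excess in leiomyosarcoma was largest in Ror2 (-1.74 ± 0.21), Col18a1 (-1.70 ± 0.37), Axl (-1.64 ± 0.33) and Cdkn2a (-1.42 ± 0.33). In Ptn, Tpm1, Mmp14 and Ccnd1, by contrast, the difference between the tumours was -0.72 ± 0.30, 0.29 ± 0.33, 0.31 ± 0.40 and -0.41 ± 0.39, none of which passed.

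Leaving out 1 of the 2 muscle arrays moved at least 1 difference by over 1.5 times in 31 of the 111 named genes, and leaving out 1 bone marrow array in 2. Osteosarcoma 2 did so in 4 genes, and leiomyosarcomas 1 and 2 in 1 each. Of the 104 named shared genes, 83 to 103 were called again without any 1 array, and no difference of theirs from a normal tissue changed sign. With the background level as a block, 33 of the 104 were not called in all 4 contrasts, namely Adssl1, Aldh18a1, Axl, C1qb, C1qc, Ccn2, Col18a1, Col4a1, Col4a2, Dgat2, Emcn, Gnl3, Islr, Lcn2, Lgmn, Map7, Nid2, Pdgfra, Pdia3, Pnpla2, Prss35, Rb1, S100a8, Sfrp2, Sort1, Stc1, Tcf4, Tgfbr2, Tnfrsf11a, Tpm4, Trem2, Trp53inp2 and Wwtr1. Without background correction 17 were not, namely Aldh18a1, Cald1, Cdc14a, Cited4, Emcn, Frat2, Fzd1, Gnl3, Id3, Islr, Itga3, Lcn2, Pdgfra, Pdia3, Pdia4, Sfrp2 and Twist1, and under median scaling 9, namely Ccn2, Ctnnb1, Fzd1, Gnl3, Islr, Itga3, Pdia3, Pdia4 and Tcf4. The calls of Ctnnb1, Fgfr2, Kif23, Tgfbr2, Tpm4 and Wwtr1 were lost when a gene's probes were averaged.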

How the data were processed

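RNA of 12 samples was measured on one-colour Illumina bead arrays with 45281 probes. One deposited table holds background-subtracted probe intensity values and a detection p-value per probe, per the file headers and values. The deposited series value table holds the same intensity values before subtraction of 1 constant per array. The sources used here name no software for that step. Members and lists were chosen with earlier results of these data known.

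The deposited subtracted intensity values were background-corrected with limma 3.58.1 (R 4.3.3), using the deposited detection p-values to estimate background, with an offset of 16, then quantile-normalised and put on a log2 scale. Probes with detection p under 0.05 on at least 2 arrays were kept (21383, of which 18013 had a gene name). GEO's platform annotation gave 34885 probes 1 symbol, 18 several, and did not list 10378. Each of 11754 genes was represented by its probe of highest mean. A limma model of 4 group means (8 residual degrees of freedom) gave the contrasts, with Benjamini-Hochberg adjustment over all genes within each contrast. Bounds use the lowest detected signal per array. The number of arrays limits the precision.

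Named genes were the 12 largest in each direction among shared genes detected in every group without overlapping samples, the 8 largest in each direction among genes with a bound, up to 5 shared members per list, and a fixed panel. Size was the smallest of the 4 differences. Pi16, among the lower genes, was left out because its samples overlapped. The fit was tested on simulated data. Alternatives covered background correction (the unsubtracted values, quantile-normalised), scaling, detection filter, probe choice, fold minimum, background level, replicate block, array weights, joint adjustment and single arrays.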

Additional observations from a re-analysis of the deposited data

Results flagged for a closer look

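In 16 of 222 groups of 4 tumours among the 111 named genes, 1 sample stood apart from its 3 fellows by Dixon's criterion, which chance meets in about 1 group in 20. In leiomyosarcoma 1 this was Scarf2 at 13.58 (the others 12.47 to 12.55). In leiomyosarcoma 2 this was Sec24d at 8.03 (the others 8.69 to 8.79). In leiomyosarcoma 3 these were Ccnd1 at 13.16 (the others 12.08 to 12.23) and Frat2 at 5.96 (the others 5.42 to 5.47). In leiomyosarcoma 4 this was Rb1 at 7.69 (the others 8.31 to 8.44). In osteosarcoma 1 these were G0s2 at 5.33 (the others 4.92 to 4.98), Gyg at 7.62 (the others 7.26 to 7.29) and Tuba8 at 5.34 (the others 4.55 to 4.56). In osteosarcoma 2 these were Adamts4 at 7.78 (the others 9.002 to 9.21), Efnb1 at 11.02 (the others 9.86 to 9.998), Igfbp3 at 9.38 (the others 10.53 to 10.64), Prss35 at 6.27 (the others 10.23 to 10.58) and Yap1 at 13.58 (the others 7.45 to 7.83). In osteosarcoma 4 these were Ccn2 at 14.04 (the others 12.57 to 12.80), Fscn1 at 8.57 (the others 9.96 to 10.24) and Mdm2 at 9.89 (the others 9.34 to 9.43). Osteosarcoma 1, the highest of its group in the lower genes G0s2, Gyg and Tuba8, also had the highest skeletal muscle fibre sum of the tumours, 128478, and the part of that signal in the 3 levels was not tested.

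In 16 named shared genes the change against normal tissue differed between the tumour types, by limma's direct contrast of osteosarcoma with leiomyosarcoma (log2 difference ± SE). Osteosarcoma was higher in Bmp1 (1.38 ± 0.39, adjusted p 0.0432), Ccn4 (1.42 ± 0.20, adjusted p 0.00118), Col1a1 (3.11 ± 0.44, adjusted p 0.00117), Crtap (1.52 ± 0.23, adjusted p 0.00161), Ctsk (2.82 ± 0.75, adjusted p 0.0329), Efnb1 (1.52 ± 0.29, adjusted p 0.00724), Fgfr2 (3.67 ± 0.37, adjusted p 0.000105), Id3 (1.13 ± 0.33, adjusted p 0.045), Kif23 (1.59 ± 0.35, adjusted p 0.0139), Mmp13 (4.87 ± 0.31, adjusted p 3.1e-06) and Serpinh1 (1.14 ± 0.33, adjusted p 0.0472). It was lower in Axl (-1.64 ± 0.33, adjusted p 0.00914), Cdkn2a (-1.42 ± 0.33, adjusted p 0.0185), Col18a1 (-1.70 ± 0.37, adjusted p 0.0129), Ror2 (-1.74 ± 0.21, adjusted p 0.000466) and Wwtr1 (-1.15 ± 0.28, adjusted p 0.0209).

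Of 3370 detected probes without a gene name here, fitted on their own after the data were seen, 96 were higher and 28 lower in both tumours than in both normal tissues. Beside them, 457 (3.89%) of the 11754 named genes were higher and 127 (1.08%) lower. Nothing is read from the counts of unnamed probes.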

How the results depend on the processing

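None of the 584 shared genes was called the other way in all 4 contrasts under any alternative fitted. A sign changed in 4 higher genes. With a gene's probes averaged, Kif23 (leiomyosarcoma minus bone marrow) was -0.23, Slc44a1 (leiomyosarcoma minus muscle) -0.49 and Pde4dip -1.996 and -1.60 (each tumour minus muscle), the last -6.74 and -4.91 without background correction. With the background block, Gpsm2 in osteosarcoma was -0.12 and -0.20 from muscle and marrow. Other than Kif23, these were picked after their values were seen. The 457 higher and 127 lower genes became 285 and 55 with values not background-corrected, 359 and 190 under median scaling, 463 and 130 with detection p under 0.01, 423 and 113 with no detection filter, 414 and 110 with the mean of a gene's probes, 598 and 287 with no fold minimum, 167 and 18 with a log2 minimum of 2, 309 and 68 with the background level as a block, 452 and 125 with array weights, and 330 and 81 with the largest of the 4 p-values adjusted. With the replicate number as a block they were 435 and 110. Samples of the same number had deviations that correlated between -0.079 and 0.082. Muscle 1 and bone marrow 2, which have the same animal code, gave -0.018, so this check cannot tell whether the numbers pair samples. The animal code as a random block could not be fitted. Leaving out 1 array gave 355 to 503 higher and 93 to 133 lower genes.

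Without background correction the calls were 2095 and 2129 against bone marrow (leiomyosarcoma, then osteosarcoma), 2548 between osteosarcoma and muscle and 1670 for the mean contrast, in place of 3276, 3273, 3884 and 2832. A log2 minimum of 2 gave 1452, 1487, 1559 and 890, and 1728 in place of 4136 for leiomyosarcoma against muscle. With no minimum the mean contrast called 5586. Shared genes that differed between the tumours, 82, became 45 without background correction, 129 with no minimum, 9 with a minimum of 2 and 40 with the block. Those that differed between the normal tissues, 167, became 81, 255, 40 and 108. Leaving out 1 array gave 3793 to 4219 calls for leiomyosarcoma against muscle, 2497 to 3360 against bone marrow, 3577 to 3962 (osteosarcoma, muscle), 2496 to 3439 (osteosarcoma, bone marrow), 2656 to 2874 for the mean contrast, 56 to 92 genes between the tumours and 104 to 184 between the normal tissues. The cause of these changes was not tested, other than that a fold minimum itself adds or removes genes.

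Of the 104 named shared genes, 68 to 104 kept their calls under the alternatives over all arrays, fewest with a minimum of 2 and 71 with the background block. With 2 arrays for each normal tissue, many calls rest on single arrays. Genes near background have only bounds.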
